A study of Mus musculus with 37 samples.

Results

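Ccdc138, Fam166a, Alkbh8, Xkrx and Ninj2 are 5 of the 54752 mouse genes in count tables of single oocytes, and 18 of the 138835 transcripts in the transcript table belong to them. They were selected on the comparison of GV_A with MII_A oocytes, where their RSEM counts passed the threshold for a change and their HTSeq counts did not, so their values there describe the choice and carry no test. RSEM shares each read among the transcripts it could have come from and sums these shares per gene, whereas HTSeq assigns reads to a gene by the exons they overlap. The working name of the set was strong changes at metaphase II that depend on counting. Ninj2 goes against that name, since its counts were lower in MII_A in both tables, and the set is therefore called here by its genes.

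RNA of 37 single oocytes from young adult C57BL/6 females had been sequenced in 2 batches, A and B. GV_A (n = 6) and GV_B (n = 10) are immature oocytes with an intact germinal vesicle, the large nucleus of the arrested oocyte, collected after PMSG, a gonadotropin that drives follicle growth. MII_A (n = 6) are ovulated oocytes at metaphase II, taken from the ampulla of the oviduct after PMSG and then hCG, the ovulation trigger. MI_B (n = 15) are GV oocytes that were matured in M16 medium and harvested in metaphase I. The labels name no genotype beyond the strain. No comparison within a batch joins metaphase I and metaphase II, so stage, maturation in the animal or in culture, and batch cannot be told apart between MI_B and MII_A. The labels name no female for each oocyte, so the p-values and the intervals of log2 fold changes measure only the spread between these oocytes. Because the libraries carry no molecular identifiers, floors cover counting error only.

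The total RSEM count ran from 7509812 to 12648571 in GV_A, from 9930422 to 13988336 in MII_A, from 7184193 to 17724506 in GV_B and from 2709247 to 19390137 in MI_B. Levels are also given as CPM, the count scaled to the size of the library, and 3 counts per library is used as the floor of detection, near which Xkrx and Fam166a lie in several groups. In MII_A oocyte 1, 29816 genes had a count, while the other 5 MII_A oocytes had 19574 to 22598, so this library is treated as standing apart. MI_B oocytes 4, 8 and 9 also stood apart, since their HTSeq count was a median of 1.07 to 1.13 times the RSEM count over 8243 genes and this ratio was 1.98 to 2.20 in the other 34 oocytes. MI_B oocyte 15 had the lowest depth. Some of the values below are also given without these libraries.

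All 10 oocyte markers on the list fixed for this work had counts in each group. Of these, 4 (Zp1, Zp2, Zp3 and Ooep) were called lower in MII_A than in GV_A with RSEM and 3 (Zp1, Zp2 and Zp3) with HTSeq, where 8.47% and 5.79% of all genes were called, and 0 were called between GV_B and MI_B. Gdf9, a growth factor secreted by the oocyte, was the most abundant of them in the RSEM table, at a mean of 2184 CPM in GV_A, 1989 CPM in MII_A, 2322 CPM in GV_B and 1900 CPM in MI_B. The 12 markers of granulosa and cumulus cells, the somatic cells around the oocyte, summed to between 9.25 and 53.9 CPM per oocyte over the 4 groups. Cyp19a1, which makes estrogens, was the most abundant of these, at 12.5 CPM in GV_A, 14.1 CPM in MII_A, 17.8 CPM in GV_B and 15.2 CPM in MI_B, while Ptx3 was at 0 in GV_A, and Amh, Foxl2 and Ptx3 were at 0 in GV_B and MI_B. Of the granulosa markers, 0 of 1 tested passed the threshold between GV_A and MII_A (edgeR), and 2 of 4 tested, Gja1 and Ccnd2, were lower in MI_B than in GV_B with RSEM, where 0.121% of all genes were called. With HTSeq, 0 of 5 were called in that comparison, and with the replicate block no RSEM gene was. The 5 blood or immune markers in the table summed to 12.0 CPM in MII_A oocyte 1 and to at most 4.71 CPM in any other oocyte. What part other cells had in any value below was not tested.

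The full-grown oocyte is nearly silent in transcription, so its messenger RNA pool changes through decay and through lengthening or shortening of the poly(A) tail until the embryo starts its own transcription. Smart-seq2, the method used, starts its cDNA at the poly(A) tail, so a transcript's count depends on its tail as well as on its abundance. The 5 genes are not known to act in a shared pathway. Ccdc138 encodes a coiled-coil protein of the centriolar satellites, granules around centrosomes. Fam166a encodes a protein of the microtubules inside cilia. Alkbh8 encodes a methyltransferase that works with Trmt112 on uridines in the wobble position of transfer RNA anticodons. Xkrx belongs to the XK family of membrane proteins, some of which scramble phospholipids, and Ninj2 encodes a membrane protein of cell adhesion, related to Ninj1, which acts in the rupture of the plasma membrane of dying cells.

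A gene was called when its adjusted p in edgeR was under 0.05 and its fold change was over 2. In the RSEM table, all 5 genes passed the filter on low counts and all 5 were called between GV_A and MII_A, as the selection on this comparison required, where 8.47% of 12929 genes were called. In the HTSeq table, 3 of the 5 passed the filter (Ccdc138, Alkbh8 and Ninj2) and 0 of them were called, again as selected, where 5.79% of 13409 genes were called. Of the 9 transcripts of these genes with a mean of at least 10 counts in a group, 7 passed the filter and 5 were called in the same comparison that selected the genes, where 5.57% of 22461 transcripts were called: Ccdc138-202, Fam166a-202, Alkbh8-204, Xkrx-201 and Ninj2-201. Nothing is read from these counts, since the genes were chosen on this comparison.

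GV_B against MI_B was not used to choose the genes. There, 3 of the 5 passed the filter in the RSEM table (Ccdc138, Alkbh8 and Ninj2) and edgeR called 0 of them, with 0.121% of 12419 genes called. The unadjusted p of these 3 was under 0.05 in 0 cases, against 1371 of all genes, and DESeq2 also called 0 of the 3, against 121 of all genes. In the HTSeq table the same 3 genes passed and edgeR called 0, with 0% of 12441 genes called and 927 genes at an unadjusted p under 0.05. Of the 9 transcripts, 7 passed and edgeR called 0, with 0% of 22717 transcripts called, 1615 at an unadjusted p under 0.05 and 103 called by DESeq2. The members' counts of 0 are near the background in all 3 tables.

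**Figure D1:**
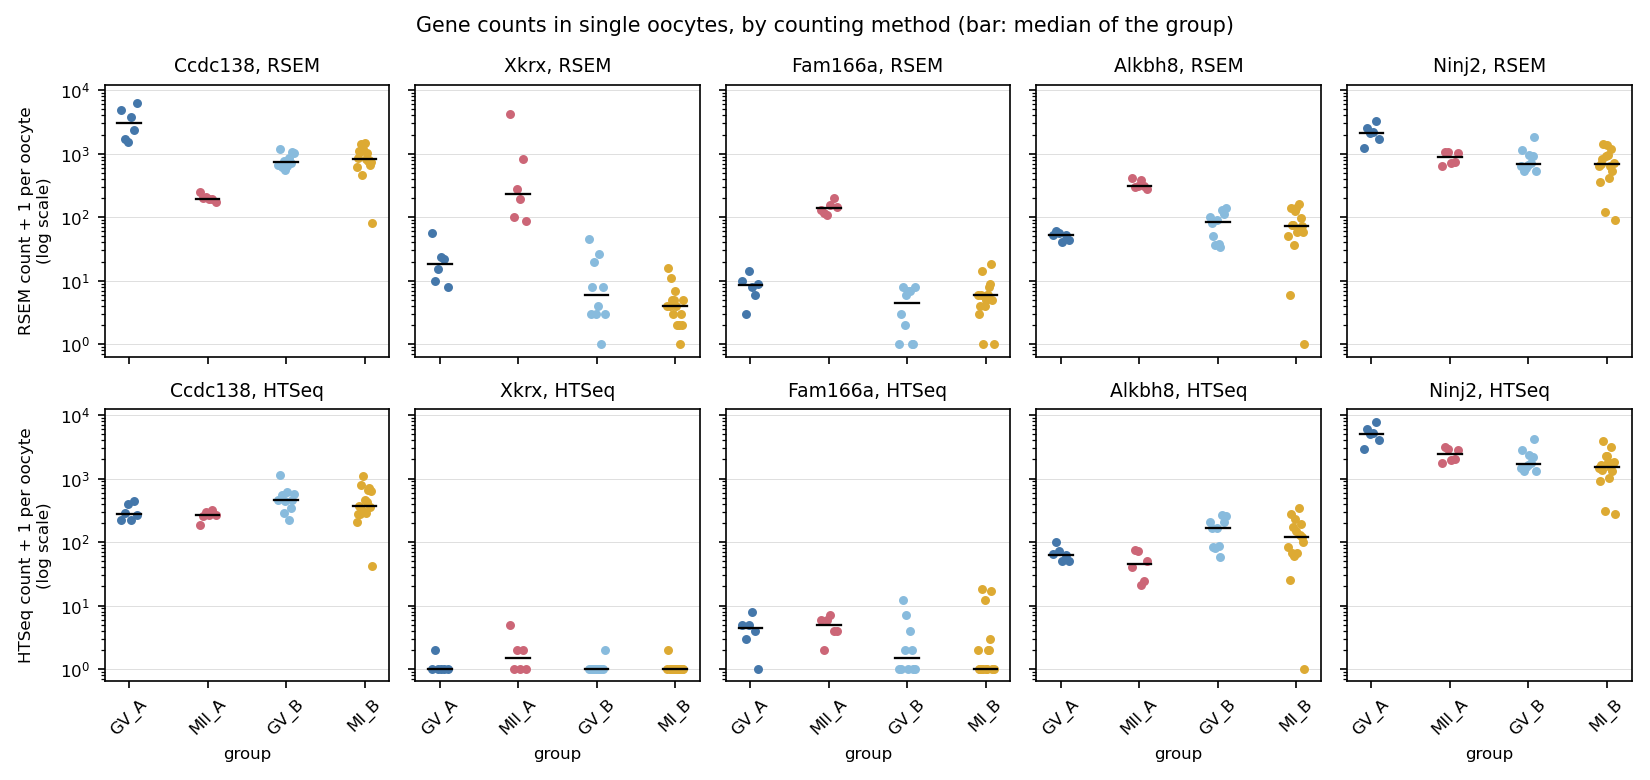
Counts of the 5 genes in each of the 37 oocytes, with RSEM counts in the upper panels and HTSeq counts in the lower panels; the vertical axis is the count plus 1 on a log scale, each point is an oocyte and the bar is the group median. The RSEM counts of GV_A and MII_A oocytes lie apart for Ccdc138, Fam166a, Alkbh8 and Xkrx, while their HTSeq counts overlap; Ninj2 is lower in MII_A in both.

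Ccdc138 lies on the plus strand at chr10:58497948-58576244 (GRCm38). Its RSEM count ran from 1551 to 6317 in GV_A, with a median of 3056.5, and from 172 to 245 in MII_A, with a median of 194.5. Every MII_A oocyte thus lay below every GV_A oocyte, in the comparison the gene was chosen by. Its HTSeq count ran from 221 to 447 in GV_A, with a median of 275, and from 181 to 317 in MII_A, with a median of 262. The 2 groups overlap in that table. As a log2 fold change this was −4.05 (SE 0.371) with RSEM and −0.05 (SE 0.200) with HTSeq, given as a description. Of the 11721 genes tested with both tables in this comparison, 1 had a larger difference between its RSEM and HTSeq log2 fold changes than Ccdc138, whose difference was −4.00.

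In the second batch the RSEM count of Ccdc138 ran from 554 to 1173 in GV_B, with a median of 736, and from 81 to 1474 in MI_B, with a median of 821. The lowest value belongs to MI_B oocyte 15, the library of lowest depth, and the groups overlap. The mean level was 74.7 ± 24.99 CPM in GV_B (SD, n = 10) and 74.1 ± 13.9 CPM in MI_B (SD, n = 15). The log2 fold change was 0.01 (SE 0.145, 95% interval −0.28 to 0.29, edgeR adjusted p = 0.991), and without MI_B oocytes 4, 8 and 9 it was −0.00 (adjusted p = 0.995). With HTSeq the counts ran from 223 to 1121 in GV_B and from 41 to 1076 in MI_B, with medians of 457 and 366. These groups overlap as well, and the log2 fold change was 0.03 (SE 0.180, 95% interval −0.33 to 0.38, edgeR adjusted p = 0.988). Both intervals leave out a change of 2-fold in either direction.

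Of the 2 Ccdc138 transcripts, Ccdc138-202 carries the RSEM change. It is annotated as a processed transcript at chr10:58498205-58502372, with 4 exons and 2750 bases, of which 2176 bases are its last exon. Its RSEM transcript count ran from 1353 to 6191 in GV_A, with a median of 2902.5, and from 51 to 156 in MII_A, with a median of 71.5. No MII_A oocyte reached the lowest GV_A oocyte, and the highest in MII_A was oocyte 1. Ccdc138-201, the protein-coding form with 16 exons and 2455 bases, had counts from 105 to 201 in GV_A and from 89 to 135 in MII_A, with medians of 125.5 and 123. Its groups overlap. Ccdc138-202 made up 99.2% of the difference in the mean RSEM count of the gene. On the log2 scale the fold changes were −5.28 for Ccdc138-202 and −0.18 for Ccdc138-201, as a description of the comparison used for the choice.

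The share of the gene's RSEM count in Ccdc138-202 had a median of 94.9% in GV_A and 35.5% in MII_A. The ratio of the HTSeq to the RSEM count of the gene moved the other way, from a median of 0.115 in GV_A to 1.40 in MII_A. In batch B the transcript still held most of the gene's count, with a mean share of 72.9 ± 10.5% in GV_B (SD, n = 10) and 75.3 ± 9.24% in MI_B (SD, n = 15). The ranges of the share overlap, and the difference did not pass a two-sided permutation test over oocytes (raw p = 0.539, adjusted p = 0.853 over the 8 shares and ratios tested). The HTSeq to RSEM ratio of the gene was 0.639 ± 0.254 in GV_B (SD, n = 10) and 0.545 ± 0.243 in MI_B (SD, n = 15), with a raw p of 0.354 in the permutation test. Without MI_B oocytes 4, 8 and 9, this ratio was 0.605 ± 0.235 in MI_B (SD, n = 12), with a raw p of 0.739, and the raw p of the share was 0.633. The transcript count itself ran from 367 to 863 in GV_B and from 68 to 1127 in MI_B, with medians of 611 and 609. The groups overlap, and its log2 fold change was 0.01 (SE 0.205, edgeR adjusted p = 0.999).

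Ccdc138-202 holds a run of 28 A at chr10:58501455-58501482, in its last exon. A run of A or T at least this long occurs in 439 of the 141767 annotated transcripts, or 0.310%. Of its 2676 windows of 75 bases, 154 (5.75%) also occur in other genes, 58 in all, led by Gm2822 (53 windows), Txndc16 (42) and Gm12879 (30). Ccdc138-201 shares 0 windows with other genes, and holds a run of its own, of 16 TG repeats in its 3′ UTR. Gm12879 itself had RSEM counts from 133 to 528 in GV_A and an HTSeq count of 0 in all 6 of these oocytes. Gm2822 likewise had RSEM counts of 20 to 45 and HTSeq counts of 0 to 2. Txndc16 differed from both, with RSEM counts of 562 to 1112 and HTSeq counts of 496 to 1405 in GV_A. How reads that match several places were treated in the HTSeq counts is not given in the sources used here. Whether the run of A or the shared windows have a part in the difference between the tables was not tested.

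Fam166a lies on the plus strand at chr2:25218745-25222280. Its RSEM count ran from 2 to 13 in GV_A, with a median of 7.5, and from 106 to 200 in MII_A, with a median of 137.5. The groups lie apart, in the comparison used to choose the gene. Its HTSeq count was 0 to 7 in GV_A and 1 to 6 in MII_A, with medians of 3.5 and 4. These values are close to the floor of 3 counts, and the groups overlap. The RSEM log2 fold change was 4.33 (SE 0.343), as a description. With HTSeq the gene did not pass the filter, so no log2 fold change is given from that table.

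In batch B the RSEM count of Fam166a was 0 to 7 in GV_B and 0 to 17 in MI_B, with medians of 3.5 and 5. Its HTSeq count was 0 to 11 in GV_B and 0 to 17 in MI_B, with medians of 0.5 and 0. Both groups sit around the floor in both tables and overlap, so a fall or a small change could not be seen, while a rise to the 106 RSEM counts or more of MII_A was not seen. MI_B oocytes 4, 8 and 9 had RSEM counts of 4 to 5 and HTSeq counts of 0.

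The whole RSEM change of Fam166a was in Fam166a-202. This is a processed transcript of 2 exons and 254 bases at chr2:25221358-25222280, whose mean RSEM transcript count was 6.67 in GV_A and 141 in MII_A, or 100% of the change in the gene. The gene's other transcript, the protein-coding Fam166a-201, stayed below the mean of 10 counts that was required to describe a transcript. The last 121 bases of Fam166a-202, 47.6% of its length, overlap the last exon of Tubb4b on the minus strand (chr2:25222160-25222280). Tubb4b encodes a beta-tubulin. Of the 180 windows of 75 bases in Fam166a-202, 47 (26.1%) also occur in this 1 other gene. The strand used in counting is not given in the sources used here, so reads of Fam166a and of Tubb4b in these 121 bases cannot be told apart.

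Tubb4b was much more abundant, at 664 ± 126 CPM in GV_A and 513 ± 43.3 CPM in MII_A in the RSEM table (SD, n = 6 each). It was lower in MII_A, with a log2 fold change of −0.43 that stays under 2-fold (edgeR adjusted p = 0.0322). It was at a log2 fold change of −0.34 with HTSeq (adjusted p = 0.116) and of −0.12 between GV_B and MI_B with RSEM (adjusted p = 0.731). The RSEM count of Fam166a was thus higher in MII_A where that of its antisense neighbour was lower. Whether reads of Tubb4b have a part in the count of Fam166a was not tested.

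Alkbh8 lies on the plus strand of chr9. Its RSEM count ran from 39 to 60 in GV_A, with a median of 52, and from 280 to 410 in MII_A, with a median of 308.5. Every MII_A oocyte lay above every GV_A oocyte, in the comparison used for the choice. Its HTSeq count ran from 50 to 99 in GV_A, with a median of 62.5, and from 20 to 75 in MII_A, with a median of 44.5. Here the groups overlap and the middle of MII_A is the lower one, so the tables differ in direction. RSEM gave a log2 fold change of 2.80 (SE 0.196) and HTSeq one of −0.35 (SE 0.390), as a description. The difference of 3.15 between the 2 log2 fold changes was exceeded in size by 7 of the 11721 genes.

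In batch B the RSEM count of Alkbh8 ran from 33 to 138 in GV_B, with a median of 84, and from 0 to 163 in MI_B, with a median of 71. The count of 0 belongs to MI_B oocyte 15, and the groups overlap. The log2 fold change was −0.14 (SE 0.361, 95% interval −0.85 to 0.56, edgeR adjusted p = 0.938), and without MI_B oocytes 4, 8 and 9 it was −0.12 (adjusted p = 0.949). The HTSeq count ran from 58 to 261 in GV_B and from 0 to 339 in MI_B, with medians of 166 and 118. These groups overlap too, and the log2 fold change was −0.15 (SE 0.372, edgeR adjusted p = 0.970). Both log2 fold changes were thus near 0 in batch B and of the same sign, where those of batch A had opposite signs, and this difference between the batches was not tested.

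Alkbh8-204 carries the higher RSEM count in MII_A. Its RSEM transcript count ran from 24 to 33 in GV_A, with a median of 26, and from 273 to 403 in MII_A, with a median of 307. The groups lie far apart, on the comparison used for the choice. Alkbh8-201 had counts of 0 to 23 in GV_A and Alkbh8-202 counts of 0 to 10, and both were at 0 in all 6 MII_A oocytes. The mean count of Alkbh8-204 went from 27.3 to 325.5, which is 107% of the difference in the gene, since the summed count of the other forms was lower in MII_A. Its share of the gene's count had a median of 55.0% in GV_A (44.3 to 63.5%) and 98.9% in MII_A (97.3 to 99.7%). The HTSeq to RSEM ratio of the gene went from a median of 1.26 in GV_A to 0.136 in MII_A.

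In batch B most of the count of Alkbh8 was in other forms. Alkbh8-204 had RSEM transcript counts of 3 to 29 in GV_B and 0 to 19 in MI_B, with medians of 10.5 and 9. The groups overlap, and its log2 fold change was −0.42 (SE 0.463, edgeR adjusted p = 0.989). Its share of the gene was 15.6 ± 8.41% in GV_B (SD, n = 10) and 20.4 ± 24.8% in the 14 MI_B oocytes with a count, with a raw p of 0.744 in the permutation test. Alkbh8-202 ran from 0 to 71 in GV_B and from 0 to 100 in MI_B, with medians of 24 and 23. It was at 0 in MI_B oocytes 2, 4, 8, 9 and 15, a group that includes all 3 oocytes with the low HTSeq to RSEM ratio. Alkbh8-201 ran from 0 to 75 in GV_B and from 0 to 105 in MI_B, with medians of 11.5 and 1. In MI_B oocytes 4, 8 and 9 it held from 0 to 76.1% of the gene's count, with a median of 72.2%. Without these 3 oocytes the mean share of Alkbh8-201 was 28.0 ± 25.4% in GV_B (SD, n = 10) and 9.95 ± 15.7% in MI_B (SD, n = 11), with a raw p of 0.0633 in the permutation test and an adjusted p of 0.469, and with them it was 18.4 ± 27.5% in MI_B (SD, n = 14), with an adjusted p of 0.853.

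Alkbh8-201, Alkbh8-202 and Alkbh8-204 differ in where they end. Alkbh8-204 spans chr9:3335478-3391154 with 7674 bases, 6113 of them in its last exon. It ends 4225 bases beyond Alkbh8-201, which has 3603 bases, and 3317 bases beyond Alkbh8-210, the form whose end lies next farthest. Alkbh8-202, with 2256 bases, ends at chr9:3385842. Within the longer 3′ UTR of Alkbh8-204, at chr9:3387217-3387260, stands a run of 22 GT repeats, and a run of GT or AC at least this long occurs in 1396 transcripts (0.985%). The run is not particular to Alkbh8-204, since Alkbh8-210, with group means of at most 0.533 counts, holds it too. Of the 7600 windows of 75 bases in Alkbh8-204, 4 occur in other genes: Ap5z1 (3 windows), Ckap2 (3) and 4632415L05Rik (1). Ckap2, a protein of the mitotic spindle, was higher in MII_A by a log2 fold change of 0.64, which is under 2-fold (edgeR adjusted p = 0.00133), and was at 0.04 between GV_B and MI_B.

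**Figure D2:**
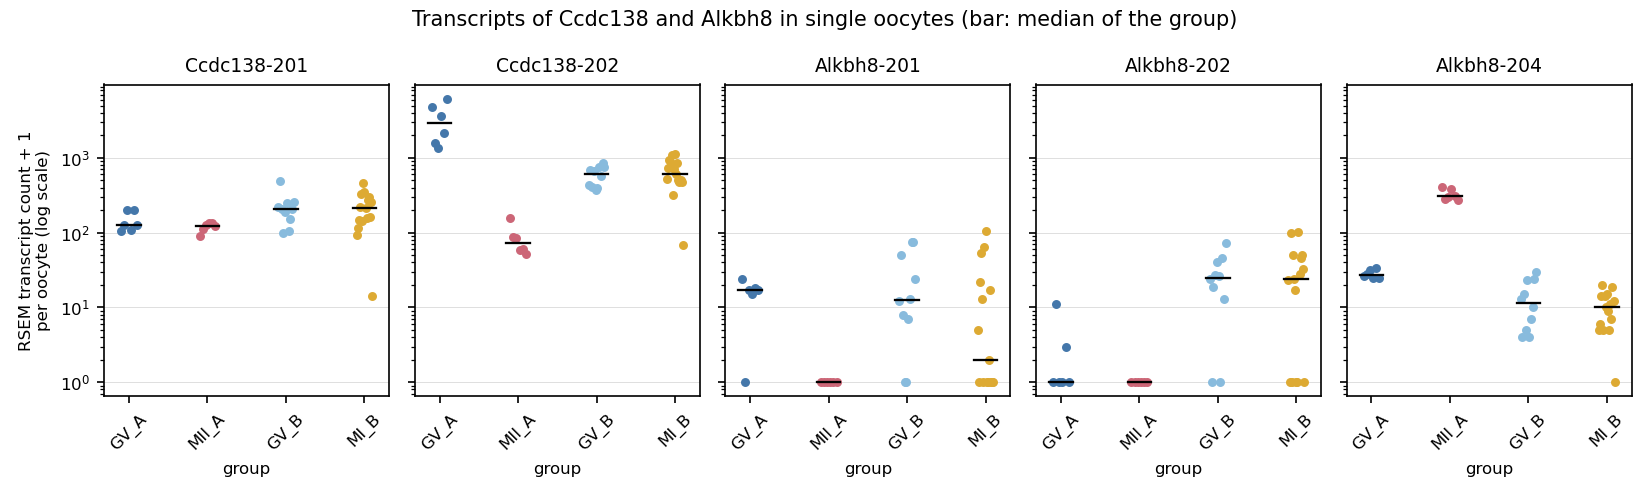
RSEM transcript counts of Ccdc138-201, Ccdc138-202, Alkbh8-201, Alkbh8-202 and Alkbh8-204 in each oocyte; the vertical axis is the count plus 1 on a log scale, each point is an oocyte and the bar is the group median. Ccdc138-202 lies at 1353 to 6191 counts in GV_A and at 51 to 156 in MII_A while Ccdc138-201 lies at 89 to 201 in both, and Alkbh8-204 stands at 273 to 403 counts in MII_A against 0 to 33 in the other 3 groups.

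Xkrx lies on the minus strand, and its transcript Xkrx-201 spans chrX:134149043-134161928. Its RSEM count ran from 7 to 56 in GV_A, with a median of 17.5, and from 85 to 4262 in MII_A, with a median of 234.5. The groups do not overlap, in the comparison the gene was chosen by, and the highest value is that of MII_A oocyte 1, far above the 835 counts of the next oocyte. The HTSeq count was at most 1 in any GV_A oocyte and at most 4 in any MII_A oocyte, again oocyte 1. All but that oocyte are at or under the floor of 3 counts, so no fold is given. The RSEM log2 fold change was 5.48 (SE 1.02), and 3.66 without MII_A oocyte 1, as a description. The mean level in MII_A was 75.8 ± 133 CPM (SD, n = 6), and 22.1 ± 20.9 CPM without that oocyte (SD, n = 5).

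In batch B, Xkrx had RSEM counts of 0 to 45 in GV_B and 0 to 15 in MI_B, with medians of 5 and 3. The groups overlap, and the gene did not pass the filter. Its HTSeq count was at most 1 in any oocyte of either group. A rise to the 85 RSEM counts or more of MII_A was not seen in MI_B, and a fall or a small change could not be told at these counts.

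Xkrx-201, with 3 exons and 2876 bases, held 100% of the gene's RSEM count in the change, and Xkrx-202 was at 0 in all 37 oocytes. Of the 2802 windows of 75 bases in Xkrx-201, 12 also occur in other genes, 22 in all. Olfr1191-ps1, the gene with the most of them (12 windows), had RSEM counts of 1 to 10 in GV_A and 2 to 110 in MII_A, and its highest value was again in oocyte 1. It overlaps between the groups. The third of these genes, 1700037C18Rik (8 windows), had RSEM counts of 0 to 6 in GV_A and 5 to 24 in MII_A, with oocyte 1 (13) the second lowest. On the CPM scale, all 6 MII_A oocytes were above every GV_A oocyte for it. Usmg5 (9 windows) was not tested in either comparison, with RSEM or with HTSeq, and no counts are given for it.

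For Ninj2 both tables gave log2 fold changes of the same sign and of similar size, unlike those of Ccdc138 and Alkbh8. Its RSEM count ran from 1236 to 3215 in GV_A, with a median of 2152, and from 633 to 1076 in MII_A, with a median of 884.5. All MII_A oocytes lie below all GV_A oocytes, in the comparison the gene was chosen on. Its HTSeq count ran from 2930 to 7853 in GV_A, with a median of 5094, and from 1758 to 3164 in MII_A, with a median of 2430.5. On the CPM scale, 5 of the 6 MII_A oocytes were below every GV_A oocyte in that table. The log2 fold change was −1.18 (SE 0.218) with RSEM, just inside the 2-fold threshold, and −0.91 (SE 0.210) with HTSeq, just outside it, as a description. The difference of −0.28 between the 2 was exceeded in size by 1143 of the 11721 genes. Its HTSeq to RSEM ratio was above that of most genes in each group, with medians of 2.38 in GV_A, 2.75 in MII_A, 2.45 in GV_B and 2.43 in MI_B.

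In batch B, the RSEM count of Ninj2 ran from 541 to 1800 in GV_B, with a median of 688, and from 88 to 1423 in MI_B, with a median of 693. The groups overlap, and the lowest oocyte is again MI_B oocyte 15. The log2 fold change was −0.30 (SE 0.205, 95% interval −0.70 to 0.10, edgeR adjusted p = 0.639), and −0.37 without MI_B oocytes 4, 8 and 9 (adjusted p = 0.576). The HTSeq count ran from 1330 to 4248 in GV_B and from 271 to 3852 in MI_B, with medians of 1681 and 1524. The groups overlap, and the log2 fold change was −0.10 (SE 0.219, edgeR adjusted p = 0.966), or −0.28 without those 3 oocytes (adjusted p = 0.831).

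Ninj2-201 made up 97.1% of the difference in the mean RSEM count of Ninj2 in MII_A. It spans chr6:120193823-120200334 with 823 bases, and its count ran from 1140 to 3165 in GV_A and from 586 to 1054 in MII_A, which lie apart. Ninj2-202 starts farther upstream, at chr6:120093350-120200339, with 853 bases, and had 49 to 119 counts in GV_A and 23 to 70 in MII_A. Their log2 fold changes were −1.22 and −0.84, as a description. In batch B, Ninj2-201 ran from 470 to 1662 in GV_B and from 88 to 1312 in MI_B, and Ninj2-202 from 4 to 137 and from 0 to 114. Both overlap between the groups, with log2 fold changes of −0.32 (SE 0.220, edgeR adjusted p = 0.895) and −0.14 (SE 0.504). Ninj2 shares 0 windows of 75 bases with other genes and overlaps no exon of another gene. The study's PCR primers for Ninj2 amplify a region shared by its 3′ UTR isoforms, at chr6:120200033-120200137 (105 bases), and a distal one, at chr6:120200253-120200302 (50 bases). Relative to the shared region, the paper reported a weaker distal band at the GV stage, which it read as a switch to the longer 3′ UTR by metaphase II. Both pairs match Ninj2-201 and Ninj2-202, so they do not separate these annotated forms, which was not their purpose.

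The 9 transcripts not described above, 7 of Alkbh8 and 1 each of Fam166a and Xkrx, had RSEM transcript counts from 0 to 50, and group means of at most 8.9.

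The runs in Ccdc138-202 and Alkbh8-204 are shown because these transcripts carry the RSEM changes of their genes. The pieces are from GENCODE transcripts and run 5′ to 3′ on the strand of the gene, with capitals for the run of A in Ccdc138-202 and for the first unit of the GT run in Alkbh8-204.
Ccdc138-202: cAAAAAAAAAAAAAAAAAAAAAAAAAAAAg
Alkbh8-204: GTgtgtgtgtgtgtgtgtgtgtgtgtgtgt

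The last 30 bases of the transcripts that carry the changes are shown to compare how they end, since a transcript needs a poly(A) signal to gain a tail. The motif AATAAA, searched on the transcript strand, is in capitals. It occurs in the last 30 bases of 33057 of the 141767 annotated transcripts, or 23.3%, and in 4 of these 5. A match is no proof of use, and other forms of the signal were not searched, so its absence does not show that a transcript lacks a signal. The motif is also in Ccdc138-201 and Fam166a-201, which do not carry the changes.
Ccdc138-202: cattAATAAActtgcttgctttactcttgt
Fam166a-202: ggctgtgaatgAATAAAgagttcacactgc
Alkbh8-204: aggacaaAATAAActccttctataaattgc
Xkrx-201: atgtgaAATAAAtgaagatttctttgtgtc
Ninj2-201: aatggaatctatctataaagatatctgaaa

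**Figure D3:**
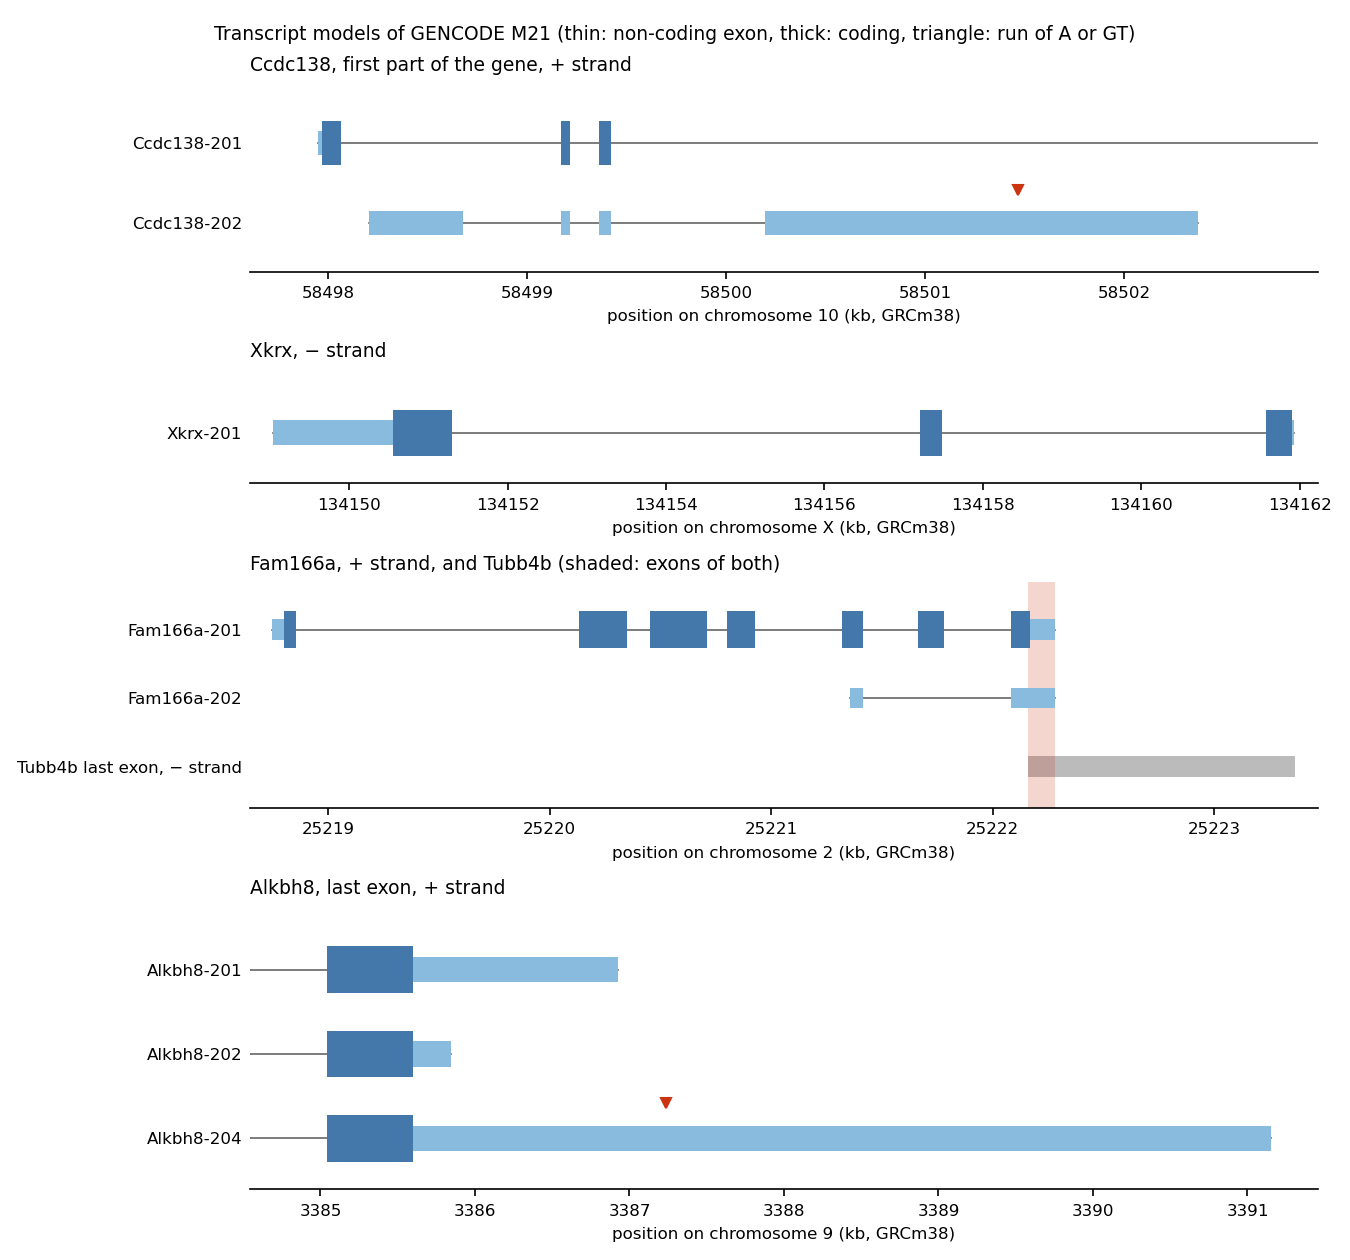
GENCODE M21 models of Ccdc138-201 and Ccdc138-202, Xkrx-201, Fam166a-201 and Fam166a-202 with the last exon of Tubb4b, and the ends of Alkbh8-201, Alkbh8-202 and Alkbh8-204; the horizontal axis is the GRCm38 position, thin boxes are non-coding exons, thick boxes coding exons, the triangle the run of A in Ccdc138-202 or of GT in Alkbh8-204 and the shaded band the overlap of Fam166a and Tubb4b. Alkbh8-204 ends 4225 bases beyond Alkbh8-201, and 121 bases of Fam166a-202 lie over Tubb4b.

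The GV oocytes of the 2 batches are set side by side with no test, since batch and group cannot be told apart there. The RSEM level of Ccdc138 was 255 ± 157 CPM in GV_A (SD, n = 6) and 74.7 ± 24.99 CPM in GV_B (SD, n = 10), and 8 of the 10 GV_B oocytes lay below every GV_A oocyte. With HTSeq it was 18.0 ± 3.77 CPM and 35.4 ± 8.88 CPM, and 9 of the 10 GV_B oocytes lay above every GV_A oocyte. The 2 tables thus put the means of the GV groups in opposite order for this gene. Its transcript Ccdc138-202 stood at a mean of 258 CPM in GV_A and 55.1 CPM in GV_B. The CPM of transcripts were scaled separately from those of genes, so the level of a transcript can exceed that of its gene.

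Alkbh8 was at 3.60 ± 0.809 CPM in GV_A (SD, n = 6) and 7.01 ± 3.13 CPM in GV_B (SD, n = 10) with RSEM, where 7 of the 10 GV_B oocytes were above every GV_A oocyte. With HTSeq it was at 3.98 ± 1.12 CPM and 11.3 ± 5.21 CPM, and all 10 were above. Ninj2 was at 152 ± 42.2 CPM in GV_A and 75.8 ± 23.9 CPM in GV_B with RSEM, and 9 of the 10 GV_B oocytes were below every GV_A oocyte in both tables. The mean of Ninj2 in GV_B thus lay near that in MII_A, which was 70.2 ± 20.8 CPM (SD, n = 6). Xkrx, at 1.77 ± 1.87 CPM in GV_A and 1.21 ± 1.54 CPM in GV_B, and Fam166a, at 0.533 ± 0.277 CPM and 0.334 ± 0.318 CPM, were low in both sets of GV oocytes. For these last 2 genes the batches of GV oocytes overlap.

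Levels of different genes were compared as RSEM CPM per kilobase of transcript. Ninj2 was the most abundant of the 5 in each group, at means of 195 ± 54.4 in GV_A (SD, n = 6), 88.7 in MII_A, 90.1 in GV_B and 72.4 in MI_B. Ccdc138 was next in GV_A (98.0 ± 59.4, SD, n = 6), GV_B (27.3) and MI_B (27.1), while in MII_A, at 6.49, it lay between Xkrx and Alkbh8. Fam166a was the second gene in MII_A, at 45.4 CPM per kilobase, against 2.04 in GV_A, 1.12 in GV_B and 1.52 in MI_B. Xkrx was at 28.3 ± 50.1 CPM per kilobase in MII_A (SD, n = 6), a spread that covers its neighbours in the order. Its oocytes there ran from 2.61 to 129.5 CPM per kilobase. Without MII_A oocyte 1, its mean in CPM fell from 75.8 to 22.1, so its mean level there rests largely on 1 oocyte. The order of the genes was not worked out without that oocyte. It was the lowest in the other groups, at 0.644 in GV_A, 0.408 in GV_B and 0.157 in MI_B. Alkbh8 was at 0.878 in GV_A, 3.67 in MII_A, 2.48 in GV_B and 2.54 in MI_B, so its level per length stayed low even in the group where its RSEM count was high. Neighbours in the order whose ranges of mean ± SD overlapped were Ninj2 and Ccdc138 in GV_A, Fam166a, Alkbh8 and Xkrx in GV_A and GV_B, Alkbh8 and Fam166a in MI_B, and Xkrx with both Fam166a and Ccdc138 in MII_A.

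The size of the difference between the tables is set beside that of all genes. For GV_A against MII_A this is a description only, since the genes were chosen for such a difference there. Between GV_A and MII_A, the RSEM and HTSeq log2 fold changes differed by more than 1 in 118 of the 11721 genes tested with both (1.01%), and by more than 2 in 23 (0.196%). Between GV_B and MI_B they differed by more than 1 in 79 of 11112 genes, and by −0.02 for Ccdc138, 0.00 for Alkbh8 and −0.20 for Ninj2. Of the 1095 genes called with RSEM between GV_A and MII_A, 585 (53.4%) were also called with HTSeq, and these are 75.3% of the 777 called there. Among genes higher in MII_A with RSEM, 62 of 278 (22.3%) were called with HTSeq and 179 were not tested there, whereas among those lower, 523 of 817 (64.0%) were called and 64 were not tested. Without MII_A oocyte 1, the RSEM calls between GV_A and MII_A were 163 higher and 753 lower. Xkrx and Fam166a are among the 179 that did not pass the HTSeq filter. Genes with a mean RSEM count of at least 50 and a mean HTSeq count of at most 3, the pattern of Xkrx in MII_A, numbered 265 of 9352 (2.83%) in GV_A, 386 of 9066 (4.26%) in MII_A, 261 of 8587 (3.04%) in GV_B and 307 of 8663 (3.54%) in MI_B.

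For each of the 5 genes, the pair of genes with the most similar RSEM profile was taken over the 37 oocytes, as log2 CPM relative to the mean of the GV oocytes of the same batch. These oocytes share their libraries, depth and batch, and MII_A oocytes were few and far from the rest, so the coefficients are descriptions. Ccdc138 was closest to Rpsa (r = 0.898, rho = 0.407, n = 37) and Rps13 (r = 0.892, rho = 0.542, n = 37), which encode proteins of the small ribosomal subunit. Both were lower in MII_A in both tables, with log2 fold changes of −2.85 and −3.44 with RSEM and −2.97 and −3.33 with HTSeq. That of Ccdc138 was −4.05 with RSEM and −0.05 with HTSeq. Ninj2 was closest to Elobl (r = 0.930, rho = 0.933, n = 37) and Eif3m (r = 0.927, rho = 0.875, n = 37), the latter a subunit of a translation initiation factor. Their log2 fold changes were −1.09 and −1.26 with RSEM and −1.14 and −1.26 with HTSeq.

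The genes most like Xkrx and Fam166a also had few HTSeq counts in MII_A. Xkrx was closest to Vmn2r112 (r = 0.907, rho = 0.789, n = 37), a vomeronasal receptor gene, whose mean count in MII_A was 48.5 with RSEM and 4.83 with HTSeq. It was next closest to A130077B15Rik (r = 0.886, rho = 0.738, n = 37), with 160.8 and 0.667. In MI_B the mean count of A130077B15Rik was 8.73 with RSEM and 13.7 with HTSeq. Fam166a was closest to Slc25a5-ps (r = 0.817, rho = 0.570, n = 37), a pseudogene, with 53.5 and 4.33, and to Gm42756 (r = 0.812, rho = 0.413, n = 37), with 168.5 and 2.83. Alkbh8 was closest to Gm43942 (r = 0.806, rho = 0.548, n = 37), at a mean of 69.2 counts with RSEM and 13.3 with HTSeq in MII_A, and to Atl1 (r = 0.795, rho = 0.630, n = 37), which shapes the endoplasmic reticulum. Atl1 had many counts in both tables, with means of 1449.5 and 2353 in MII_A, and its log2 fold change there was 0.53 with RSEM and 0.59 with HTSeq.

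The relatives and partners of the 5 genes were taken from fixed lists. Of the 8 other AlkB dioxygenases, the family Alkbh8 belongs to, all 8 were tested between GV_A and MII_A, 0 rose and 1 fell, beside 8.47% called over all genes. The one that fell was Alkbh7, a mitochondrial member, at 36.8 ± 8.82 CPM in GV_A and 16.4 ± 5.32 CPM in MII_A (SD, n = 6 each), with a log2 fold change of −1.23 (SE 0.219, edgeR adjusted p = 0.00127). HTSeq gave −1.27 for it (edgeR adjusted p = 0.000888). The median log2 fold change of the list was −0.20 with RSEM and that of all 12929 genes 0.01. Of the 7 tested between GV_B and MI_B, edgeR called 0 (0.121% over all genes), and the list's median was −0.12 against 0.02 over all genes.

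Of 13 genes for modification of wobble uridines, the step Alkbh8 completes, 12 were tested between GV_A and MII_A in the RSEM table, 0 rose and 1 fell, again beside 8.47% over all genes. This was Elp5, a subunit of Elongator, at 41.4 ± 8.84 CPM in GV_A and 17.5 ± 4.92 CPM in MII_A (SD, n = 6 each), with a log2 fold change of −1.31 (edgeR adjusted p = 0.000441). HTSeq gave −1.22 (edgeR adjusted p = 0.000451). The list's median was −0.10 against 0.01 over all genes. Trmt112, the partner of Alkbh8, stood at a log2 fold change of 0.32 in MII_A over GV_A (adjusted p = 0.299) and of −0.56 in MI_B over GV_B (adjusted p = 0.468). Of the 11 tested between GV_B and MI_B, edgeR called 0 (0.121% over all genes), with a median of 0.12.

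Of 7 other XK family genes, 2 were tested between GV_A and MII_A and edgeR called 0 (8.47% over all genes), with log2 fold changes of 0.75 for Xk and 0.42 for Xkr8. The log2 fold change of Ninj1 with RSEM was 0.52 between GV_A and MII_A (adjusted p = 0.0512), of 0.62 with HTSeq (adjusted p = 0.0233), which is under 2-fold, and of −0.40 between GV_B and MI_B (adjusted p = 0.485). Of the 2 other FAM166 genes, 1, Fam166b, was in the tables and 0 passed the filter. All 14 genes of centriolar satellites were tested in each comparison and edgeR called 0, beside 8.47% and 0.121% of all genes, with a median log2 fold change of 0.15 between GV_A and MII_A and 0.28 between GV_B and MI_B. Pcm1, the scaffold of the satellites, was at 0.54 between GV_A and MII_A (adjusted p = 0.00942), under 2-fold. With ERCC spike-in size factors the median over all genes moved from 0.01 to −0.72 between GV_A and MII_A, so each of these differences is relative to the other genes.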

How the data were processed

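RNA of single oocytes was made into cDNA with Smart-seq2 and sequenced as paired reads. Per the submitters' processing notes, the authors used Trim Galore 0.6.4, STAR 2.7.6a, HTSeq 0.12.4 and RSEM 1.3.1 with mm10 and GENCODE VM20. The authors deposited HTSeq read counts for genes, and RSEM expected counts for both genes and transcripts, none of them normalized. The overlap mode and strandedness of the HTSeq counting are not given in the sources used here.

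Expected counts were rounded and 92 ERCC spike-ins left out. Each pair of groups was fitted across all features with edgeR 4.0.16 in R 4.3.3 (filterByExpr, TMM, quasi-likelihood test, Benjamini-Hochberg adjustment), and the code was tested on simulated data with 200 changed features. CPM used TMM factors over all 37 oocytes, with genes and transcripts scaled separately. Shares and ratios were compared by two-sided permutation tests with 100000 resamples (scipy 1.17.1). Sequences and coordinates came from GENCODE M21 on GRCm38, where 53861 gene IDs and 137913 transcript IDs matched exactly.

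The members and lists were chosen with earlier results of these data known. The named genes were the 5 members, their transcripts with a mean of at least 10 RSEM counts in a group, genes with overlapping exons, up to 3 genes sharing most windows of 75 bases with a member's transcripts, the 2 genes with the highest Pearson r over 37 oocytes among those with a mean of at least 10 counts, and the family lists. The alternatives were DESeq2 1.42.0, RLE size factors, ERCC size factors, no filter beyond at least 1 count, HTSeq counts, the sample number as a block, and leaving out the libraries that stood apart.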

Additional observations from a re-analysis of the deposited data

Results flagged for a closer look

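In 7 of 53 groups examined, 1 oocyte lay far from the rest of its group, where chance does this in about 1 of 20 groups. The groups share genes and oocytes, so no excess over chance is read from this. Of the 7, 3 concern Xkrx in MII_A oocyte 1 and 2 concern Xkrx in GV_A oocyte 1, and the RSEM counts of Xkrx-201 repeat those of the gene. The RSEM level of Xkrx in that oocyte was 344 CPM (4262 counts), against at most 57.5 CPM in the other MII_A oocytes. Its transcript Xkrx-201 had the same 4262 counts, or 373 CPM on the separate scale of the transcripts. The HTSeq level of Xkrx was highest in the same oocyte, at 0.279 CPM, which is 4 counts. In the RSEM table, Xkrx was also high in GV_A oocyte 1, at 5.42 CPM (56 counts) for the gene and 5.65 CPM for Xkrx-201. The level of Ccdc138-202 in MII_A oocyte 1 was 13.6 CPM (156 counts), above 4.34 to 7.42 CPM in the other 5, and still far below the GV_A oocytes. The level of Alkbh8-202 in GV_A oocyte 2 was 0.690 CPM, or 10 counts. No part of these differences was tested against a property of the libraries.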

How the results depend on the processing

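Under the alternatives, 72 values stayed close to the reported ones, 18 moved and 5 changed sign, and the cause was not tested. Numbers of calls were taken as close within a ratio of 1.5. Close values thus include, for GV_A against MII_A, 777 genes with HTSeq counts against 1095 with RSEM. They also include 1799 transcripts with DESeq2 against 1252 with edgeR. Between GV_A and MII_A, the 1095 genes called with RSEM became 3919 with ERCC size factors (131 higher, 3788 lower) 1859 without the filter (895 higher, 964 lower) and 916 without MII_A oocyte 1 (163 higher, 753 lower). Between GV_B and MI_B, the 15 called with RSEM became 121 with DESeq2, 40 without the filter, 36 without MI_B oocytes 4, 8 and 9, 0 with edgeR on HTSeq counts (927 at an unadjusted p under 0.05) and 0 on HTSeq counts without those oocytes (885). The 0 called with HTSeq became 2990 without the filter (930 higher, 2060 lower), and the 0 transcripts became 103 with DESeq2 and 2 without the filter. With the sample number as a replicate block, edgeR called 0 genes with RSEM between GV_B and MI_B (992 at an unadjusted p under 0.05) and 532 transcripts between GV_A and MII_A, against 1252 without it, and the number of RSEM genes called between GV_A and MII_A was 886. The numbers were not found to pair the oocytes: the deviations of same-numbered oocytes correlated at −0.33 to 0.34 over 6 pairs in batch A (1 over 0.1, 1 best with its own number) and at −0.15 to 0.11 over 10 pairs in batch B (1 over 0.1, 0 best). With ERCC size factors the log2 fold changes between GV_A and MII_A were −4.83 for Ccdc138, 3.60 for Fam166a, 2.02 for Alkbh8 and −1.93 for Ninj2. With HTSeq counts they were −0.052 for Ccdc138 and −0.35 for Alkbh8, a change of sign, and without MII_A oocyte 1 that of Xkrx was 3.66. Without MI_B oocytes 4, 8 and 9, 4 differences of MI_B from GV_B changed sign: the log2 fold change of Ccdc138 to −0.0043, the HTSeq to RSEM ratio of Alkbh8 from −0.0579 to 0.180, that of Ninj2 from −0.0500 to 0.107, and the share of Ninj2-202 from 0.255 to −0.0397 percentage points. The adjusted p of the members between GV_B and MI_B ranged over the alternatives from 0.878 to 0.995 for Ccdc138, from 0.883 to 0.975 for Alkbh8 and from 0.463 to 0.966 for Ninj2. Xkrx and Fam166a did not pass the filter in batch B, and fits without it gave log2 fold changes of −1.45 (SE 0.787) for Xkrx and 0.54 (SE 0.820) for Fam166a.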
